A study of Mus musculus with 10 samples.

Results

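Freshly sorted nephron progenitors of the E11.5 mouse embryo were compared with the GFP-negative cells of the newborn across all genes of an expression microarray. The members were chosen by label alone: the E11.5 Six2-GFP-positive arrays without culture, and the P0 Six2-GFP-negative arrays. They are 4 of the 10 arrays of the study, 2 in each group. All animals were Six2-GFP transgenic mice on a C57BL6J/ICR background, so both groups carry the reporter, and cells were separated by their GFP signal on a FACS Aria II. The other 6 arrays hold P0 Six2-GFP-positive cells (here P0 progenitors) and E11.5 progenitors held in culture for 8 or 19 days. These 6 served the shared estimate of spread, and the P0 progenitor arrays are also given as levels, with no test. The labels date the newborn samples as P0, while their deposited files are named for a late embryonic stage, and the labels are followed here. They name the tissue of every sample as embryo and do not say that the P0 GFP-negative cells came from kidney, how many animals were pooled, or what sequence drives GFP beyond the transgene's name. Nor do they say whether the replicates came from separate litters, so the p-values measure the spread between these samples, which may be technical. The 2 P0 non-progenitor replicates differed in the median level of 5 sex-linked genes, at -1.49 and -6.78, beside -1.64 and -1.66 on the E11.5 arrays, in log2 units. That median joins Xist with genes of the Y chromosome, so it does not give the sex of a sample. Between the E11.5 replicates, 2 of the 5 genes were more than 1 log2 unit higher on replicate 1 and 2 were more than 1 unit lower. Age and cell type both differ between the groups, and their shares in a change cannot be told apart.

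Six2 encodes the transcription factor that keeps cap mesenchyme cells, the stem-like progenitors of the nephron, from differentiating. These cells sit around each tip of the branching ureteric bud, divide in response to FGF, BMP and Wnt signals, and are used up around birth. Those that leave the pool pass through a pretubular aggregate and a renal vesicle and become podocytes, proximal tubule, loop of Henle and distal tubule. The newborn kidney also holds the collecting ducts that arise from the ureteric bud, interstitial stroma, renin and mural cells, endothelium and blood cells. A GFP-negative gate can contain any of these.

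Each value below is a log2 level, the log2 signal of a gene's probe minus the 75th percentile of its array, so that 0 marks that percentile. A change is the mean level of the E11.5 progenitors minus that of the P0 non-progenitors, in log2 units with its standard error (SE, n = 2 arrays per group). Replicate 1 is given before replicate 2. A gene was called at an adjusted p of at most 0.05 in limma, with Benjamini-Hochberg adjustment over all 26210 genes tested. A gene that no probe placed well above background in one group has only a bound there, written as "at least" a fold. The number of arrays limits the precision, and no spot was saturated. The 75th percentile was 222 and 233 on the E11.5 arrays and 297 and 277 on the P0 non-progenitor arrays, and 61.3 to 69.0% of spots were well above background. All 4 arrays shared a slide, with the E11.5 arrays in its row 1 and the P0 non-progenitor arrays in row 2, so row and group cannot be told apart. The E11.5 replicates differed by more than 1 log2 unit in 25.0% of genes, against 16.9% for the P0 non-progenitor replicates.

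The E11.5 progenitors and the newborn non-progenitors differed in 4659 of 26210 genes, or 17.8%. In the E11.5 progenitors 2564 genes were higher (9.78%) and 2095 were lower (7.99%). Counts of calls in the gene lists below are read against these shares. The higher calls were small, with a median change of 1.16, and 451 of them exceeded 2 log2 units. The lower calls were large, with a median of -3.38, and 1674 of them exceeded 2 log2 units. Among ordinary gene symbols, 662 called genes were well above background on both P0 non-progenitor arrays and on neither E11.5 array, against 49 in the opposite direction. Most of the large differences were thus lower levels at E11.5. The levels of the 2 groups did not overlap in 61.4% of all genes tested, so non-overlap of single genes below is read against that share. The median change of all genes was 0.25, so a change in a bright gene is read relative to that shift. The split of calls depended on scaling: 55.0% of calls were higher here, 37.6% after quantile normalization and 44.7% with centring on probes above background on all arrays. The number of calls was 2538 without P0 non-progenitor replicate 1 and 2308 without P0 non-progenitor replicate 2.

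**Figure D1:**
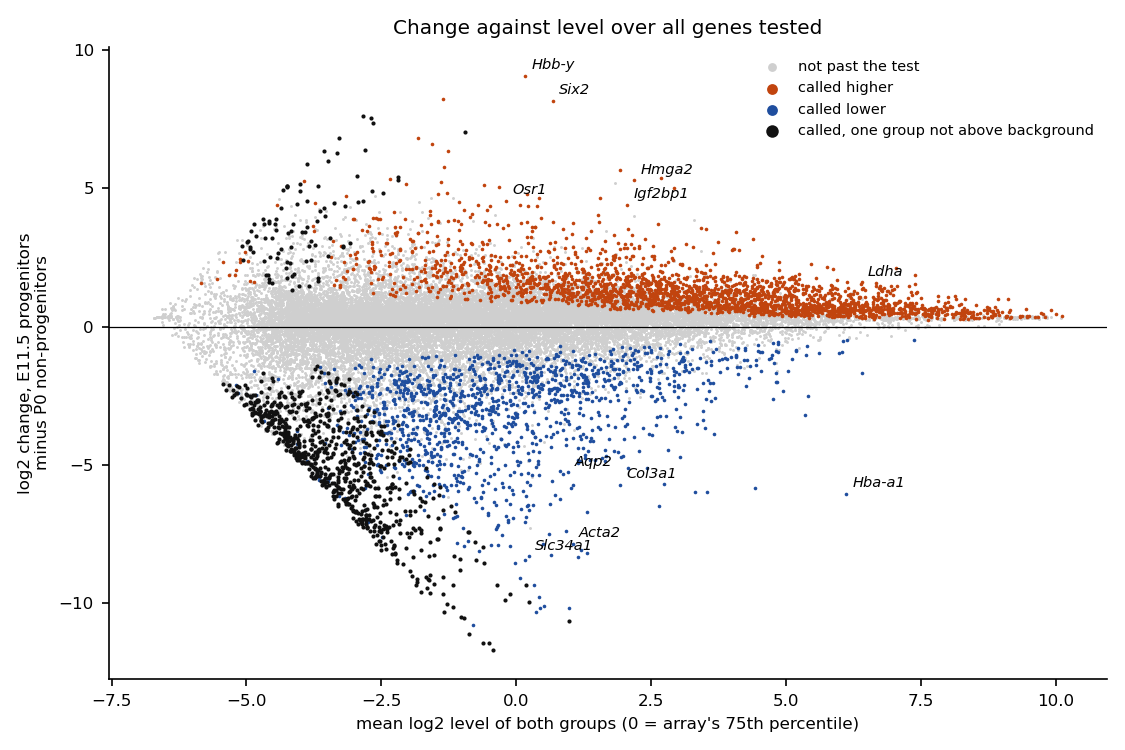
Log2 change (E11.5 progenitors minus P0 non-progenitors) against the mean log2 level of both groups for the 26210 genes tested, each point 1 gene, with called genes coloured and genes not above background in one group in black. Of the 2095 lower calls 809 lie beyond -4, and of the 2564 higher calls 71 lie beyond 4.

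The genes that define nephron progenitors were for the most part higher in the E11.5 cells. Of 25 genes tested 13 were called higher and 2 lower, with a median change of 2.20 against 0.25 for all genes. Six2 itself (probe at chr17:86083634-86083693, mm9) read 4.7 and 4.82 on the E11.5 arrays. It read -2.26 and -4.55 on the P0 non-progenitor arrays, where 1 of the 2 was well above background, a change of 8.16 ± 0.71, adjusted p = 0.000533. Its 3 probes gave changes from 2.36 to 8.16, in 1 direction. The P0 progenitors read 4.27 and 4.11. The reporter that set the gate carries the name of this gene, so its difference is not independent of the sort. Osr1, an early transcription factor of kidney mesoderm, read 1.33 and 2.83 in the E11.5 cells and -2.76 and -2.16 in the newborn negative cells (change 4.54 ± 0.72, adjusted p = 0.00537). Cited1, which marks the most immature cap mesenchyme, read 3.0 and 3.64 against 1.33 and 0.45 (2.43 ± 0.53, adjusted p = 0.0197), and its P0 progenitor levels were 6.03 and 5.53. The homeobox gene Meox1 read 3.7 and 3.98 against 0.55 and 0.04 (3.54 ± 0.44, adjusted p = 0.00204), and its relative Meox2 was at least 42.7-fold higher, with E11.5 levels of 0.46 and 0.56. For all of these genes the groups did not overlap. Cited1 (adjusted p up to 0.111) did not pass without E11.5 replicate 2 or without P0 non-progenitor replicate 2.

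Other progenitor genes changed less, did not pass the test or were lower. Pax2, needed for the nephric lineage, read 4.56 and 4.21 against 3.4 and 3.05 (1.16 ± 0.23, adjusted p = 0.0125). Sall1, a zinc finger partner of Six2, read 3.85 and 4.36 against 1.58 and 1.91, and its change of 2.36 ± 0.72 had an adjusted p of 0.0629. Wt1, which is also abundant in podocytes, read 4.9 and 5.03 against 4.31 and 4.78 (change 0.42 ± 0.24, adjusted p = 0.278). The 2 genes against the trend were the heparan sulfate sulfotransferase Hs3st3a1, at least 16.7-fold lower, and the growth factor Fgf9, at least 5.36-fold lower. Both were below background on the E11.5 arrays. Eya1, the phosphatase partner of Six2, could not be judged: its only probe was bright and nearly level, at 9.68 and 9.58 against 9.24 and 9.4, and 9.48 and 9.42 on the P0 progenitor arrays. Leaving out P0 non-progenitor replicate 2 reduced the higher calls in the list from 13 to 6. Pax2 (adjusted p up to 0.0817) did not pass without E11.5 replicate 1 or without P0 non-progenitor replicate 2.

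Genes of the fetal timing programme were mostly higher at E11.5. The list joins the Lin28, Igf2bp and Hmga families, which are high in the early embryo and are shut off with age, with Mycn, Trim71 and Arid3a. Of 10 genes 7 were called higher, Mycn among them, and none lower (median 1.60). The 3 that did not pass were Lin28a, Trim71 and Arid3a. Hmga2, an architectural chromatin protein (probe at chr10:119800621-119800680, mm9), read 4.87 and 4.78 in the E11.5 progenitors and -0.66 and -0.27 in the newborn negative cells. That change of 5.29 ± 0.26, adjusted p = 6.62e-05 was a 39.1-fold difference, and the P0 progenitors lay between the groups at 2.14 and 1.82. Igf2bp1, an mRNA-binding protein, read 3.69 and 4.82 against -0.7 and 0.41 (4.4 ± 0.53, adjusted p = 0.00184). Its paralogs Igf2bp3 (2.46 and 2.52 against -0.38 and -0.41, 2.88 ± 0.74, adjusted p = 0.0353) and Igf2bp2 (1.66 ± 0.33) followed. Lin28b, which blocks maturation of let-7 microRNAs, was at least 11.6-fold higher. Lin28a read -2.56 and -0.94 against -3.15 and -2.76 and did not pass the test (1.2 ± 0.58, adjusted p = 0.204). Without P0 non-progenitor replicate 2 the list had 4 higher calls. Igf2bp3 (adjusted p up to 0.131) passed in none of the 4 fits that leave out an array. Igf2bp2 (adjusted p up to 0.0864) did not pass without E11.5 replicate 2 or without P0 non-progenitor replicate 2.

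**Figure D2:**
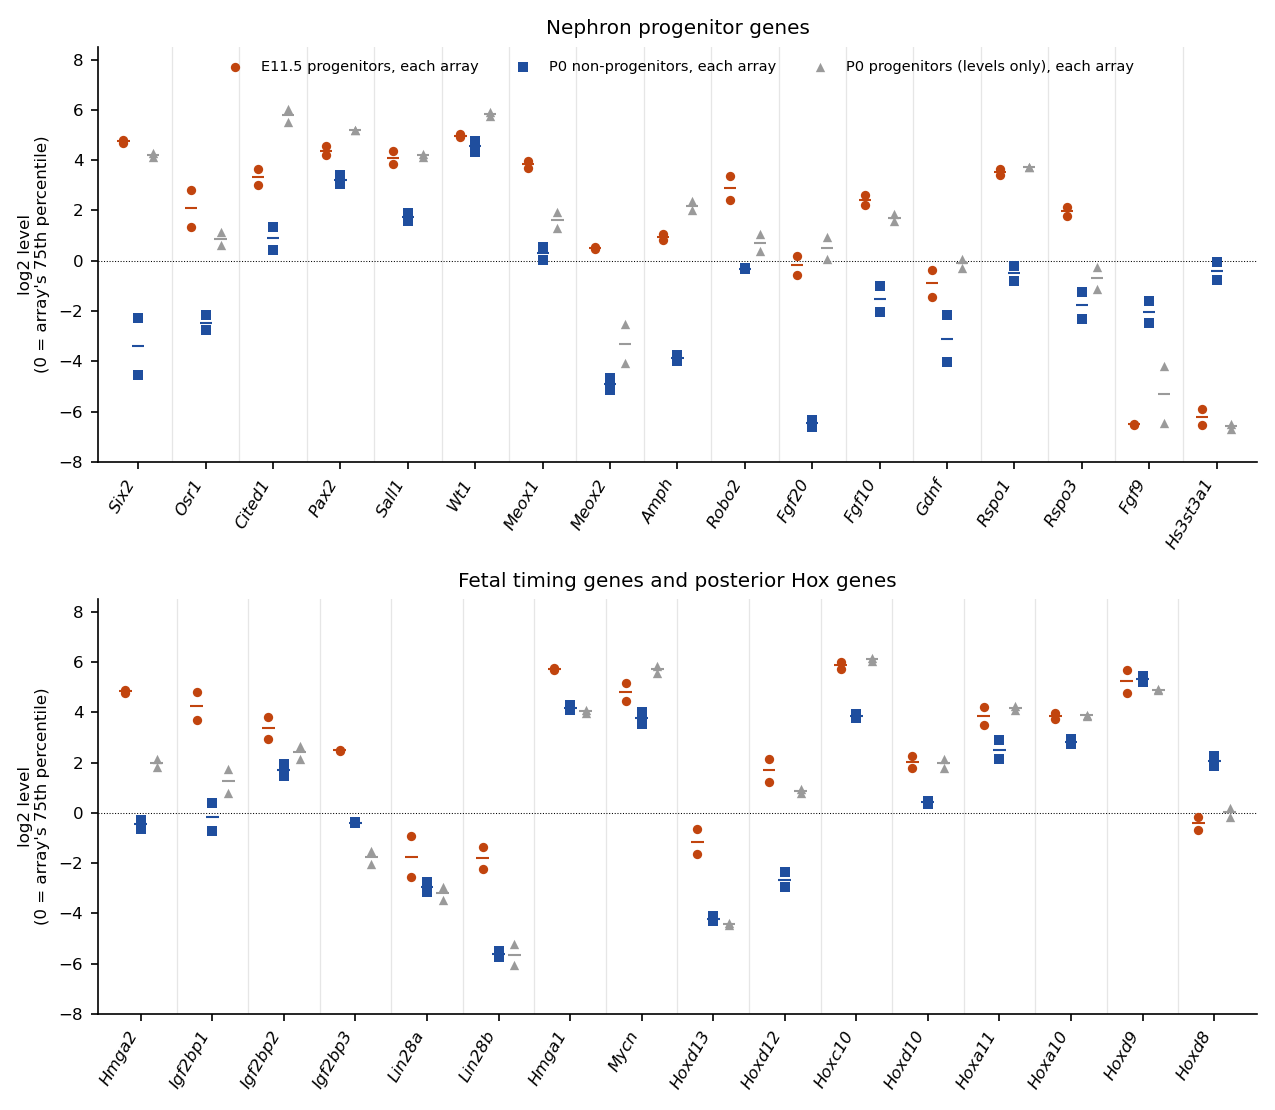
Log2 levels of nephron progenitor genes (top) and of fetal timing and posterior Hox genes (bottom), each point 1 array and each short line a group mean of 2 arrays, with P0 progenitors shown as levels only. Six2 reads 4.7 and 4.82 in E11.5 progenitors against -2.26 and -4.55 in P0 non-progenitors.

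Posterior Hox genes, which give mesoderm its position along the body, differed in part. Of 15 tested, 6 were higher, 1 was lower and 8 did not pass. The large differences lay at the 5′ end of the HoxD cluster, where Hoxd12 read 2.15 and 1.22 against -2.97 and -2.35 (4.35 ± 0.47, adjusted p = 0.00122) and Hoxd13 read -0.66 and -1.62 against -4.1 and -4.3 (3.06 ± 0.42, adjusted p = 0.00314). Hoxd8, the listed HoxD gene farthest from that end, went the opposite way, with -0.69 and -0.15 against 1.88 and 2.25 (-2.49 ± 0.3, adjusted p = 0.00188). Hoxa11, which with its paralogs is required for kidney formation, read 3.5 and 4.2 against 2.15 and 2.88 (1.34 ± 0.32, adjusted p = 0.0265), and Hoxc10 read 5.74 and 6.02 against 3.92 and 3.77 (2.03 ± 0.27, adjusted p = 0.00271). Of the other HoxD genes listed, Hoxd10 was called higher, and Hoxd9 and Hoxd11 did not pass. Within HoxD the change of sign thus rests on Hoxd8, and HoxD genes beyond it were not in the list. Imprinted growth genes, expressed from one parental allele, gave 5 higher and 2 lower calls of 15. The growth factor Igf2 read 5.82 and 5.8 against 4.25 and 3.81 (1.78 ± 0.26, adjusted p = 0.00411), and H19, the noncoding RNA next to it, read 8.27 and 8.37 against 6.6 and 6.33 (1.86 ± 0.27, adjusted p = 0.00357). Dlk1 (2.44 ± 0.45, adjusted p = 0.00972) and Peg3 (2.09 ± 0.24, adjusted p = 0.00156) were also higher. Plagl1, a zinc finger regulator of growth, was one of the 2 lower ones, with 3.96 and 4.33 against 6.73 and 6.62 (-2.52 ± 0.35, adjusted p = 0.00301), and its 4 probes gave changes from -2.52 to -0.06. Hoxa11 (adjusted p up to 0.136) did not pass without E11.5 replicate 2 or without P0 non-progenitor replicate 1. Dlk1 (adjusted p = 0.0626) did not pass without P0 non-progenitor replicate 1.

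Signalling genes differed among ligands, antagonists and targets. Among FGF receptors and ERK feedback genes, 7 of 16 were higher and 1 lower. Fgf10, a ligand that promotes bud branching, read 2.21 and 2.62 against -1.0 and -2.02 (3.92 ± 0.91, adjusted p = 0.0244). Fgf20, a cap mesenchyme ligand counted in the nephron progenitor list, was at least 35.3-fold higher. The ERK-induced ETS factors Etv4 (1.73 ± 0.41, adjusted p = 0.0256), Etv1 (1.7 ± 0.37, adjusted p = 0.0198) and Etv5 (1.43 ± 0.2, adjusted p = 0.00321) were higher, though the 2 Etv1 probes gave -0.35 and 1.70. Etv5 read 4.02 and 4.42 against 2.67 and 2.92, and Etv4 read 3.32 and 3.88 against 1.65 and 2.09, without overlap. The receptor Fgfr4 was lower at -2.86 ± 0.42, adjusted p = 0.00412, while Fgfr2 did not pass (-1.1 ± 0.41, adjusted p = 0.111). The 7 higher calls became 2 to 4 when any one of the 4 arrays was left out. Fgf10 (adjusted p up to 0.127) passed in none of the 4 fits that leave out an array. Fgf20 (adjusted p up to 0.0663) and Etv1 (adjusted p up to 0.107) passed without E11.5 replicate 2 but in none of the other 3 fits that leave out an array. Etv4 (adjusted p up to 0.132) passed without E11.5 replicate 1 but in none of the other 3 fits that leave out an array.

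Of 32 Wnt pathway genes 4 were higher and 8 lower, beside 9.78% higher and 7.99% lower over all genes, so the higher calls were near the general share. The Wnt-amplifying R-spondins Rspo1 (3.64 and 3.42 against -0.81 and -0.2, 4.03 ± 0.89, adjusted p = 0.0202) and Rspo3 (3.74 ± 0.72, adjusted p = 0.0123), the receptor Fzd2 (4.81 and 4.6 against 1.99 and 1.7, 2.86 ± 0.15, adjusted p = 9.78e-05) and the repressor Tcf7l1 (2.68 ± 0.34, adjusted p = 0.00215) were the higher ones. Wnt9b, the ureteric bud signal that acts on the progenitors, read -3.1 and -3.43 against 1.35 and 0.48 (-4.17 ± 0.42, adjusted p = 0.000891). The Wnt antagonists Sfrp1 (-4.92 ± 0.46, adjusted p = 0.000702), Dkk3 (-4.27 ± 0.99, above background on 1 E11.5 array) and Dkk2 (at least 23.5-fold) were also lower. Of the 8 lower calls 5 were thus ligands or secreted antagonists, and the other 3 were Frizzled receptors. Higher Wnt calls fell to 2 without E11.5 replicate 1 or without P0 non-progenitor replicate 2, and lower calls to 5 without P0 non-progenitor replicate 1. Rspo1 (adjusted p up to 0.105) passed in none of the 4 fits that leave out an array. Rspo3 (adjusted p up to 0.0787) did not pass without E11.5 replicate 1 or without P0 non-progenitor replicate 2. Dkk3 (adjusted p up to 0.118) did not pass without P0 non-progenitor replicate 1 or without P0 non-progenitor replicate 2.

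Among 21 BMP and TGF-beta genes 4 were higher, 2 lower and 15 did not pass. Of the 4 Id genes tested, direct targets of BMP receptors, 3 were called higher. Id1 read 3.39 and 3.5 against 1.98 and 1.74 (1.59 ± 0.31, adjusted p = 0.0127), Id2 changed by 1.29 ± 0.24, adjusted p = 0.0111, and Id3 by 1.05 ± 0.24, adjusted p = 0.0221, whereas Id4, named after its values were seen, did not pass (-1.73 ± 0.86, adjusted p = 0.216). Bmper, a secreted BMP modulator, read 2.2 and 1.98 against -1.2 and -2.18 (3.78 ± 0.74, adjusted p = 0.0125). Bmp7, a ligand of the cap mesenchyme, read 0.88 and 0.22 against -1.12 and -0.35 and missed the threshold (1.28 ± 0.39, adjusted p = 0.0588). Smoc2, a matrix protein, was at least 28.6-fold lower and Bmp6 changed by -3.49 ± 0.94, with 1 E11.5 array above background. Without P0 non-progenitor replicate 2 the list had no higher call, and without E11.5 replicate 1 it had 2. Each of E11.5 replicate 1 and both P0 non-progenitor replicates, when left out, gave 1 lower call. Id3 (adjusted p up to 0.118) passed in none of the 4 fits that leave out an array. Bmp6 (adjusted p up to 0.198) passed without E11.5 replicate 2 but in none of the other 3 fits that leave out an array. Id1 (adjusted p up to 0.0776) did not pass without E11.5 replicate 2 or without P0 non-progenitor replicate 2. Bmper (adjusted p up to 0.08) did not pass without E11.5 replicate 1 or without P0 non-progenitor replicate 2. Id2 (adjusted p = 0.0712) did not pass without P0 non-progenitor replicate 2.

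Retinoic acid genes split evenly, with 4 higher and 4 lower of 16. The retinol receptor Stra6 (1.17 and 1.43 against -2.44 and -2.51, 3.78 ± 0.54, adjusted p = 0.00362), the retinol dehydrogenase Rdh10 (4.54 and 4.42 against 1.09 and 0.43, 3.72 ± 0.29, adjusted p = 0.000356) and the synthetic enzyme Aldh1a2 (1.76 ± 0.25, adjusted p = 0.00317) were higher in the E11.5 cells. The related enzymes Aldh1a3 and Aldh1a1 were at least 105-fold and 21.1-fold lower, and the receptor Rarg was below background at E11.5 and called lower. Members of one enzyme family thus moved in opposite directions. Notch genes gave 7 lower calls and no higher call of 17 (median -1.38). The ligand Jag1 read -0.44 and -1.16 against 3.11 and 3.23 (-3.97 ± 0.48, adjusted p = 0.00185), the modifier Lfng was at least 48.4-fold lower and the feedback target Nrarp at least 29.9-fold lower. Notch4, an endothelial receptor, changed by -1.76 ± 0.41, adjusted p = 0.0243, whereas the target Hey1 read 3.05 and 3.43 against 2.6 and 2.26 and did not pass (0.81 ± 0.29, adjusted p = 0.101). Notch4 (adjusted p up to 0.137) passed without P0 non-progenitor replicate 2 but in none of the other 3 fits that leave out an array.

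Some cell division genes were higher in the E11.5 progenitors. Of 29 DNA replication genes 13 were higher, none was lower and 16 did not pass (median 1.35), and of 29 mitotic genes 11 were higher, none was lower and 18 did not pass (median 0.99). Mcm7, a subunit of the replicative helicase, read 5.82 and 6.15 against 4.5 and 4.41 (1.53 ± 0.16, adjusted p = 0.000998), and Mcm10, a factor that helps to start replication, changed by 2.4 ± 0.48, adjusted p = 0.014. The ribonucleotide reductase subunit Rrm2 read 5.08 and 4.96 against 3.58 and 3.28 (1.59 ± 0.18, adjusted p = 0.00146), and Uhrf1, which carries DNA methylation through replication, read 6.82 and 6.98 against 5.25 and 4.41 (2.07 ± 0.33, adjusted p = 0.00554). The groups did not overlap in any of these. Among mitotic genes the checkpoint kinase Bub1 (2.0 and 1.99 against -0.38 and -0.12, 2.24 ± 0.36, adjusted p = 0.00592), Aurka (1.71 ± 0.36, adjusted p = 0.0174) and topoisomerase Top2a (0.79 and 1.32 against -0.93 and -0.35, 1.69 ± 0.35, adjusted p = 0.0167) rose, and the kinase Plk1 did not pass (1.48 ± 0.51, adjusted p = 0.0887). Mki67, the usual proliferation marker, chosen here after its values were seen, read 2.51 and 2.98 against 2.9 and 3.56 and had a change of -0.49 ± 0.27, adjusted p = 0.264. The mitotic list had 6 higher calls without E11.5 replicate 2, 5 without P0 non-progenitor replicate 1 and 2 without P0 non-progenitor replicate 2, while the replication list had 9 to 11 when one array was left out. Mcm10 (adjusted p up to 0.0828) did not pass without E11.5 replicate 1 or without P0 non-progenitor replicate 2. Aurka (adjusted p up to 0.0991) did not pass without E11.5 replicate 2 or without P0 non-progenitor replicate 2. Top2a (adjusted p up to 0.0971) did not pass without E11.5 replicate 2 or without P0 non-progenitor replicate 1.

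Of 16 cell cycle brakes 5 were lower, 1 was higher and 10 did not pass. The kinase inhibitor gene Cdkn2c was at least 64.0-fold lower, reading -6.55 and -6.53 in the E11.5 cells and 1.08 and 1.99 in the newborn cells. Cdkn1a, the p21 inhibitor, read -3.22 and -6.05 against -1.49 and -0.34 (-3.72 ± 0.99, adjusted p = 0.0396), with 1 E11.5 array above background and probes from -3.72 to -0.37, and the pocket protein gene Rbl2 was at least 5.87-fold lower. The cyclin gene Ccng2 was the member that rose (1.03 ± 0.27, adjusted p = 0.0403). Without E11.5 replicate 2 or P0 non-progenitor replicate 2 the lower calls fell to 2, without P0 non-progenitor replicate 1 to 3, and Ccng2 passed in none of the 4 fits that leave out an array. Chromatin regulators gave 7 higher calls and none lower of 20, among them the heterochromatin protein Cbx5 (4.06 and 4.14 against 1.8 and 1.58, 2.41 ± 0.19, adjusted p = 0.000366), the Polycomb genes Cbx2 (2.34 ± 0.33, adjusted p = 0.00355) and Ezh2 (1.79 ± 0.33, adjusted p = 0.0107), and the demethylase Kdm2b (1.62 ± 0.26, adjusted p = 0.00599). Without P0 non-progenitor replicate 1 the list had 4 higher calls, and lower calls appeared without E11.5 replicate 1 (1 gene) and without E11.5 replicate 2 (2 genes). Cdkn1a (adjusted p up to 0.182) passed without E11.5 replicate 1 but in none of the other 3 fits that leave out an array. Ezh2 (adjusted p = 0.068) did not pass without P0 non-progenitor replicate 1.

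Promoters of the cell division lists often held a short element. In the 250 bases before the start site, CCAAT (the NF-Y box, searched on both strands) was present in 21 of 25 mitotic genes with a promoter in the RefSeq table (84.0%) and 17 of 24 replication genes (70.8%). It was present in 37.5% of all 27025 genes with a promoter there. Other lists held it as often, with 16 of 16 cholesterol synthesis genes, 4 of 4 adult globins and 7 of 9 gonad and adrenal genes (77.8%). Over all genes it was found in 44.0% of those called higher and 35.4% of those called lower. TTTGAA, the cell cycle homology region, was in 9 of 25 mitotic genes (36.0%) against 18.3% of all, and the E2F motif TTTGGCGC in 3 of 24 replication genes (12.5%) against 0.485%. Among genes called higher 12.8% held TTTGAA, against 15% of those called lower and 13.8% of those tested. For TTTGAA the share was 33.3% in the facial, limb and gut mesenchyme list and 30.8% in the retinoic acid list. It was 29.4% in the macrophage list and 29% in the proximal tubule list. For TTTGGCGC the shares of higher, lower and tested genes were 1.13%, 0.706% and 0.793%. It was held by 1 of 8 fetal timing promoters and by 2 of 19 MHC class I and interferon promoters (10.5%), a list with mostly lower calls. In all 18 patterns were searched with results known, after longer ones that are not given, and a match is a description of letters only. The 120 bases before the start of 4 such genes (RefSeq, GRCm38.p6) are shown 5′ to 3′ along the gene, because they hold these motifs next to the start, and capitals mark these 3 motifs, on either strand. Mcm6, Ccnb1 and Cdk1 were chosen after their values were seen.
Mcm6 (chr1:128359706-128359825, minus strand): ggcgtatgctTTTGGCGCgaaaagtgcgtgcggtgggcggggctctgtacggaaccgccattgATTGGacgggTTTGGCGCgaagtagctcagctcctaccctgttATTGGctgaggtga
Ccnb1 (chr13:100786487-100786606, minus strand): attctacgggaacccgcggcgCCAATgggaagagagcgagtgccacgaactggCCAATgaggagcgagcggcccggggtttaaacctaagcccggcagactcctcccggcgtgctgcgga
Cdk1 (chr10:69352913-69353032, minus strand): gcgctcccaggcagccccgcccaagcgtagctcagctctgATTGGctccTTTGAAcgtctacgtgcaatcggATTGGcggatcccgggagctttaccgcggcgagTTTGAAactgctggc
Top2a (chr11:99024190-99024309, minus strand): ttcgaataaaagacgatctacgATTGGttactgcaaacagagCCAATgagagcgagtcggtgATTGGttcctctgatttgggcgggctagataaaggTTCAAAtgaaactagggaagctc
The helicase subunit gene Mcm6 read 7.1 and 7.04 against 5.64 and 5.83 (1.34 ± 0.16, adjusted p = 0.00189). The mitotic cyclin Ccnb1 read 2.77 and 3.24 against 1.65 and 1.67 (1.35 ± 0.34, adjusted p = 0.0332) and its kinase Cdk1 read 1.81 and 1.46 against 0.46 and 0.61 (1.1 ± 0.25, adjusted p = 0.0215). All 4 were called higher without overlap between groups, though the 3 Cdk1 probes gave changes from -0.69 to 1.36. Ccnb1 (adjusted p up to 0.13) passed in none of the 4 fits that leave out an array. Cdk1 (adjusted p up to 0.106) passed without E11.5 replicate 2 but in none of the other 3 fits that leave out an array.

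Glycolysis and fatty acid oxidation separated the groups in opposite directions. Of 24 glycolysis and hypoxia genes 12 were higher and 4 lower (median 0.71, beside 0.25 for all genes and 0.42 for 15 reference genes). Of 24 fatty acid oxidation genes and regulators none was higher and 10 were lower (median -2.0). Hk2, the hexokinase that traps glucose, read 2.52 and 2.74 in the E11.5 progenitors and -0.57 and -1.22 in the newborn negative cells (3.52 ± 0.45, adjusted p = 0.00233). Slc16a3, a lactate exporter, read 0.82 and 0.96 against -2.66 and -1.68 (3.06 ± 0.48, adjusted p = 0.00502). Gapdh read 7.56 and 7.68 against 6.44 and 6.19 (1.31 ± 0.1, adjusted p = 0.000315), and Pgk1 changed by 1.45 ± 0.12, adjusted p = 0.000503. Gapdh and Pgk1 also count among the reference genes, whose median changed sign after quantile normalization. The P0 progenitors read 1.08 and 0.67 for Hk2 and 6.69 and 6.63 for Gapdh, between the groups. The glycolysis and hypoxia list as a whole was not intermediate there. Its median level was 2.17 and 2.22 on the P0 progenitor arrays, below 3.77 and 3.59 at E11.5 and 2.61 and 2.49 in the P0 non-progenitors. The 4 lower members of the list were the prolyl hydroxylase Egln3 (-5.44 ± 1.14, 1 E11.5 array above background), the glucose transporter Slc2a3 (at least 13.6-fold), Ndrg1 (-4.59 ± 0.38, adjusted p = 0.000451) and the aldolase isoform Aldoc (-3.2 ± 0.55, adjusted p = 0.00748). The list had 2 lower calls without P0 non-progenitor replicate 1 and 2 without P0 non-progenitor replicate 2. Egln3 (adjusted p up to 0.0824) passed without E11.5 replicate 2 but in none of the other 3 fits that leave out an array. Slc2a3 (adjusted p = 0.0551) did not pass without P0 non-progenitor replicate 1. Aldoc (adjusted p = 0.0543) did not pass without P0 non-progenitor replicate 2.

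The lower fatty acid genes act in import, transport and oxidation. Cpt1a, which imports fatty acids into mitochondria, read -1.01 and -0.38 against 3.57 and 2.79 (-3.88 ± 0.5, adjusted p = 0.0024), and Fabp3, a fatty acid carrier, read -2.54 and -2.34 against 2.92 and 2.8 (-5.3 ± 0.3, adjusted p = 0.000119). Pdk4, the kinase that inhibits pyruvate dehydrogenase, read -1.99 and -0.02 against 2.56 and 2.89 (-3.73 ± 0.57, adjusted p = 0.0046). The dehydrogenases Acadm (-1.22 and 0.28 against 2.11 and 1.47, -2.26 ± 0.47, adjusted p = 0.0169) and Hadh (-2.2 ± 0.51, adjusted p = 0.0235) were lower too. Ppargc1a, the coactivator of mitochondrial biogenesis, was below background on both E11.5 arrays with the probe used (-5.06 and -4.11) and read 1.99 and 2.63 in the newborn cells. Acsl1 (-2.54 ± 0.86, adjusted p = 0.0856) and Ech1 (-1.32 ± 0.45, adjusted p = 0.0848) did not pass. Cholesterol synthesis gave 4 higher and 1 lower of 22, beside 9.78% and 7.99% of all genes. The synthase Fdps (2.9 and 3.42 against 1.88 and 1.75, 1.35 ± 0.25, adjusted p = 0.0101) was higher and the desaturase Sc5d lower (-1.95 ± 0.4, adjusted p = 0.0155). Without P0 non-progenitor replicate 2 the list had 2 higher calls, and Sc5d did not pass without E11.5 replicate 1 or P0 non-progenitor replicate 1. Hadh (adjusted p up to 0.124) passed without E11.5 replicate 1 but in none of the other 3 fits that leave out an array. Acadm (adjusted p = 0.101) did not pass without P0 non-progenitor replicate 1. Fdps (adjusted p = 0.0621) did not pass without P0 non-progenitor replicate 2.

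**Figure D3:**
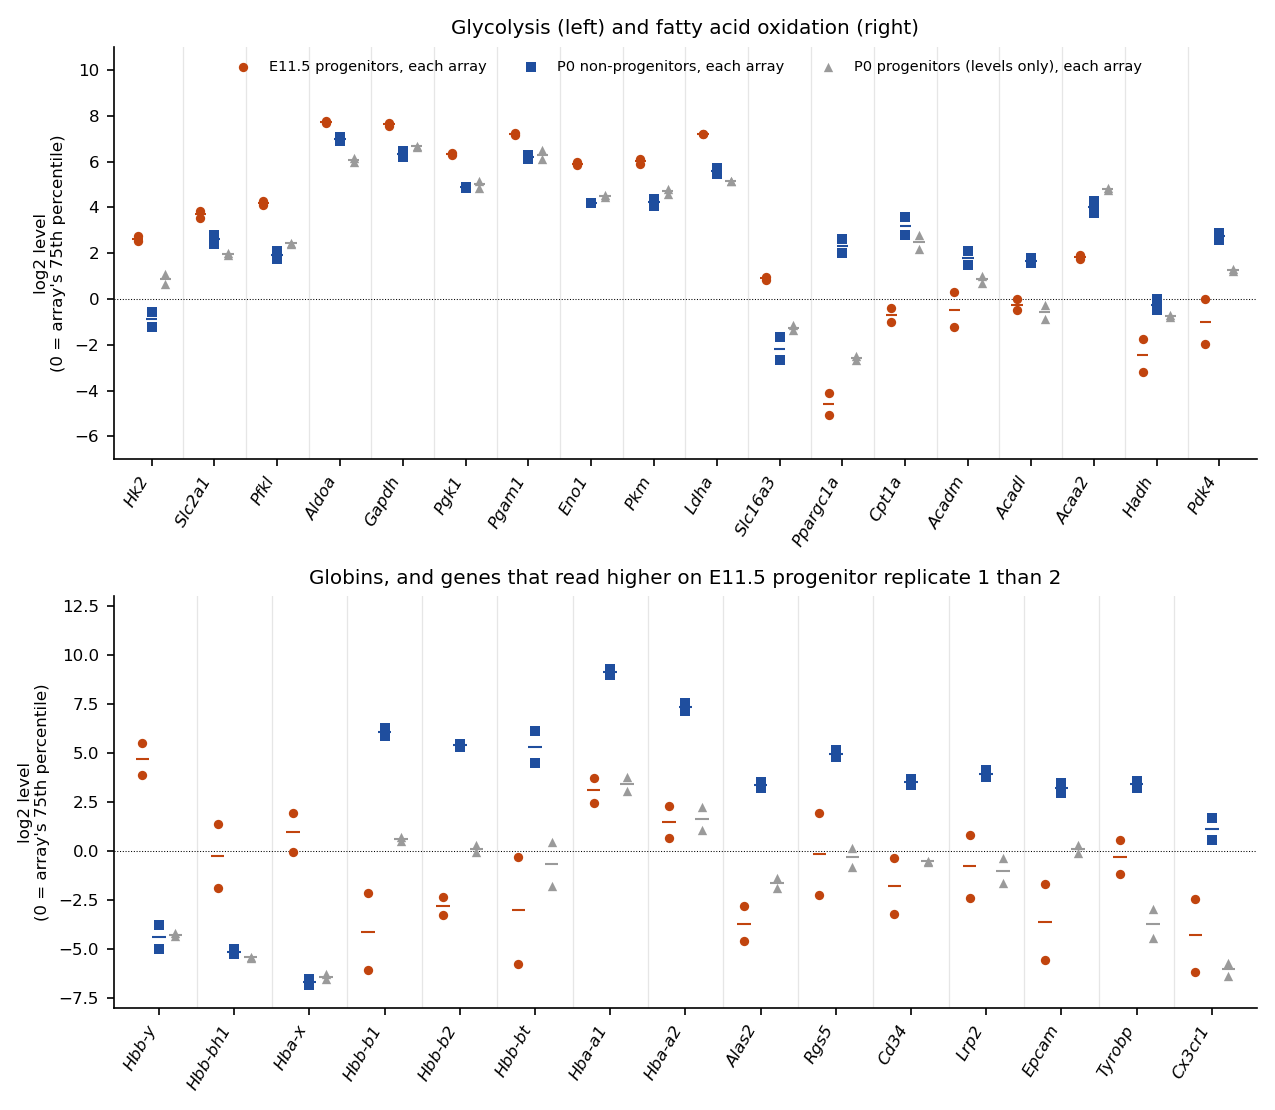
Log2 levels on each array (points) and group means of 2 arrays (short lines) for glycolysis and fatty acid oxidation genes (top), and for globins and genes that read higher on E11.5 replicate 1 than 2 (bottom), P0 progenitors as levels only. Hk2 and Slc16a3 are higher and Cpt1a and Pdk4 lower in E11.5 progenitors, and Hbb-y and Hba-a1 lie on opposite sides.

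The hypoxia response element ACGTGCG, searched on both strands, was in 4 of 22 glycolysis and hypoxia promoters (18.2%) against 1.33% of all promoters and 2.06% of those of genes tested. It was in 54 of 1242 promoters of genes called higher (4.35%) and in 15 of 1416 of genes called lower (1.06%). The 120 bases before the start of 3 called members are shown because each holds it, in capitals, from RefSeq (GRCm38.p6), and Pgam1 and Ldha were chosen after their values were seen.
Pgam1 (chr19:41911751-41911870, plus strand): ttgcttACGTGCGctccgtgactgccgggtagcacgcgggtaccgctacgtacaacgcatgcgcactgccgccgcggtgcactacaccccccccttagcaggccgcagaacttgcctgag
Ldha (chr7:46845684-46845803, plus strand): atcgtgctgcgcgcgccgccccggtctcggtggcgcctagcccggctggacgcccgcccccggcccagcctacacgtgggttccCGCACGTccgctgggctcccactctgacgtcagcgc
Slc16a3 (chr11:120948947-120949066, plus strand): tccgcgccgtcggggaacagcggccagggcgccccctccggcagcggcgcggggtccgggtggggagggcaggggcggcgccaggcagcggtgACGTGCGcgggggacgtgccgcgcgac
The mutase gene Pgam1 read 7.15 and 7.23 against 6.29 and 6.12 (0.98 ± 0.13, adjusted p = 0.00302). Lactate dehydrogenase Ldha read 7.21 and 7.2 against 5.74 and 5.45 (1.61 ± 0.11, adjusted p = 0.000255), and its 3 probes gave changes from 1.61 to 1.76. All 3 genes, one of them the lactate exporter above, were higher on both E11.5 arrays than on either P0 non-progenitor array.

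Some genes of the first differentiation steps were lower at E11.5. Of 18 genes of the pretubular aggregate and renal vesicle none was higher and 7 were lower (median -1.64). Osr2 was at least 30.7-fold lower, Papss2 at least 159-fold and the neuropeptide gene Npy at least 14.7-fold. Cdh6, the cadherin of the early proximal tubule, read -0.28 and -1.44 against 2.31 and 1.76 (-2.89 ± 0.42, adjusted p = 0.00404). Wnt4, the inducer of the mesenchymal to epithelial transition, overlapped between these groups, with 1.07 and 2.45 against 1.31 and 1.37 (0.42 ± 0.59, adjusted p = 0.664), while the P0 progenitors read 5.04 and 5.12. Lhx1, needed for the renal vesicle, read 0.75 and 0.58 against 1.25 and 1.47 (-0.69 ± 0.24, adjusted p = 0.091), and its probes disagreed, with changes from -5.87 to -0.69. Npy (adjusted p up to 0.0868) did not pass without E11.5 replicate 1 or without P0 non-progenitor replicate 2.

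Transcription factors of the nephron segments were lower in most cases. Of 22 tested none was higher and 17 were lower, with a median of -5.26, or -4.13 with bounded genes at their bound. Hnf4a, the proximal tubule regulator, was at least 91.7-fold lower, Tfap2b of the distal nephron at least 312-fold, and Tfcp2l1 of the collecting duct at least 757-fold. Tfcp2l1 read 5.26 and 4.94 on the P0 non-progenitor arrays and 1.91 and 2.18 on the P0 progenitor arrays. Irx3 was at least 43.7-fold lower and Irx1, which was above background everywhere, read -2.71 and -3.7 against 3.06 and 3.69 (-6.58 ± 1.02, adjusted p = 0.00494). On the E11.5 arrays 8 of the 22 factors were above background on both replicates, compared with all 22 on the P0 non-progenitor arrays. Foxi1, of intercalated cells, read 1.02 and 1.01 against 1.71 and 2.06 and did not pass (-0.87 ± 0.3, adjusted p = 0.0871).

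Differentiated tubule genes were lower in most cases. In the proximal tubule list none of 33 was higher and 27 were lower (median -5.58, with bounds -4.73). The summed level of its members, in units of each array's 75th percentile, was 6.17 and 6.69 on the E11.5 arrays against 172 and 193. Slc34a1, the phosphate transporter (probe at chr13:55515201-55515259, mm9), read -3.95 and -3.88 against 4.23 and 4.53 (-8.29 ± 0.87, adjusted p = 0.00103), and its second probe gave -4.27. Aqp1, the water channel, was at least 411-fold lower, Spp2 at least 584-fold and Slc27a2 at least 245-fold. Lrp2, the endocytic receptor and a defining marker, read 0.81 and -2.36 against 4.16 and 3.76 (-4.73 ± 0.93, adjusted p = 0.0129) and was higher on E11.5 replicate 1 than on replicate 2. The glucose transporter gene Slc5a2 went the other way without passing (1.37 ± 0.41, adjusted p = 0.0585). Lrp2 (adjusted p up to 0.0744) did not pass without P0 non-progenitor replicate 1 or without P0 non-progenitor replicate 2.

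Among loop and distal tubule genes none of 24 was higher and 14 were lower (median -4.15, with bounds -3.62). Its summed level was 4.28 and 7.53 at E11.5 against 175 and 199. Umod, the uromodulin of the thick limb, was at least 432-fold lower, Slc12a1 of the same cells at least 182-fold, the sodium pump subunit Fxyd2 at least 1585-fold and the calcium-binding S100g at least 771-fold. Fxyd2 read 6.24 and 6.35 on the P0 non-progenitor arrays and 2.38 and 1.82 on the P0 progenitor arrays. In the ureteric bud and collecting duct list none of 26 was higher and 18 were lower (median -4.08, with bounds -3.46). The water channels Aqp3 (-3.25 and -2.59 against 3.8 and 3.26, -6.45 ± 0.35, adjusted p = 9.85e-05) and Aqp2, a defining marker (-1.66 and -1.68 against 3.6 and 3.58, -5.27 ± 0.47, adjusted p = 0.000566), were above background in both groups, and the sodium channel subunit Scnn1g was at least 104-fold lower. Ret, the receptor of the bud tip, was below background at E11.5 and did not pass (adjusted p = 0.0564).

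Podocyte genes gave 11 lower and no higher call of 22 (median -1.74). The surface protein gene Podxl was at least 78.6-fold lower. Synpo (-6.13 ± 0.52) and Ptpro (-7.28 ± 0.85) were lower with 1 E11.5 array above background, and the 3 Synpo probes gave changes from -6.13 to -0.46. Nphs1 read 0.33 and 0.2 against 0.98 and 2.06 and missed the threshold (-1.26 ± 0.37, adjusted p = 0.0536). Without P0 non-progenitor replicate 2 the podocyte list had 7 lower calls, and without E11.5 replicate 1 it had 1 higher call. Epithelial junction and polarity genes, shared by all tubules, gave 21 lower and none higher of 27 (median -4.01, with bounds -3.66), or 13 lower without P0 non-progenitor replicate 2. Cdh16, the kidney cadherin, read -3.12 and -3.19 against 4.49 and 4.21 (-7.51 ± 0.27, adjusted p = 4.95e-05), Krt18 read -3.78 and -3.52 against 3.53 and 3.14 (-6.98 ± 0.8, adjusted p = 0.00147), and the claudin Cldn8 was at least 77.4-fold lower. Epcam read -1.66 and -5.55 against 2.96 and 3.49 (-6.83 ± 1.16, 1 E11.5 array above background). Under the normexp background correction the medians shrank, to -2.68 for the proximal tubule, -1.99 for the segment transcription factors, -1.83 for the loop and -1.91 for the junction list, with the same direction. Epcam (adjusted p = 0.0511) did not pass without P0 non-progenitor replicate 2.

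**Figure D4:**
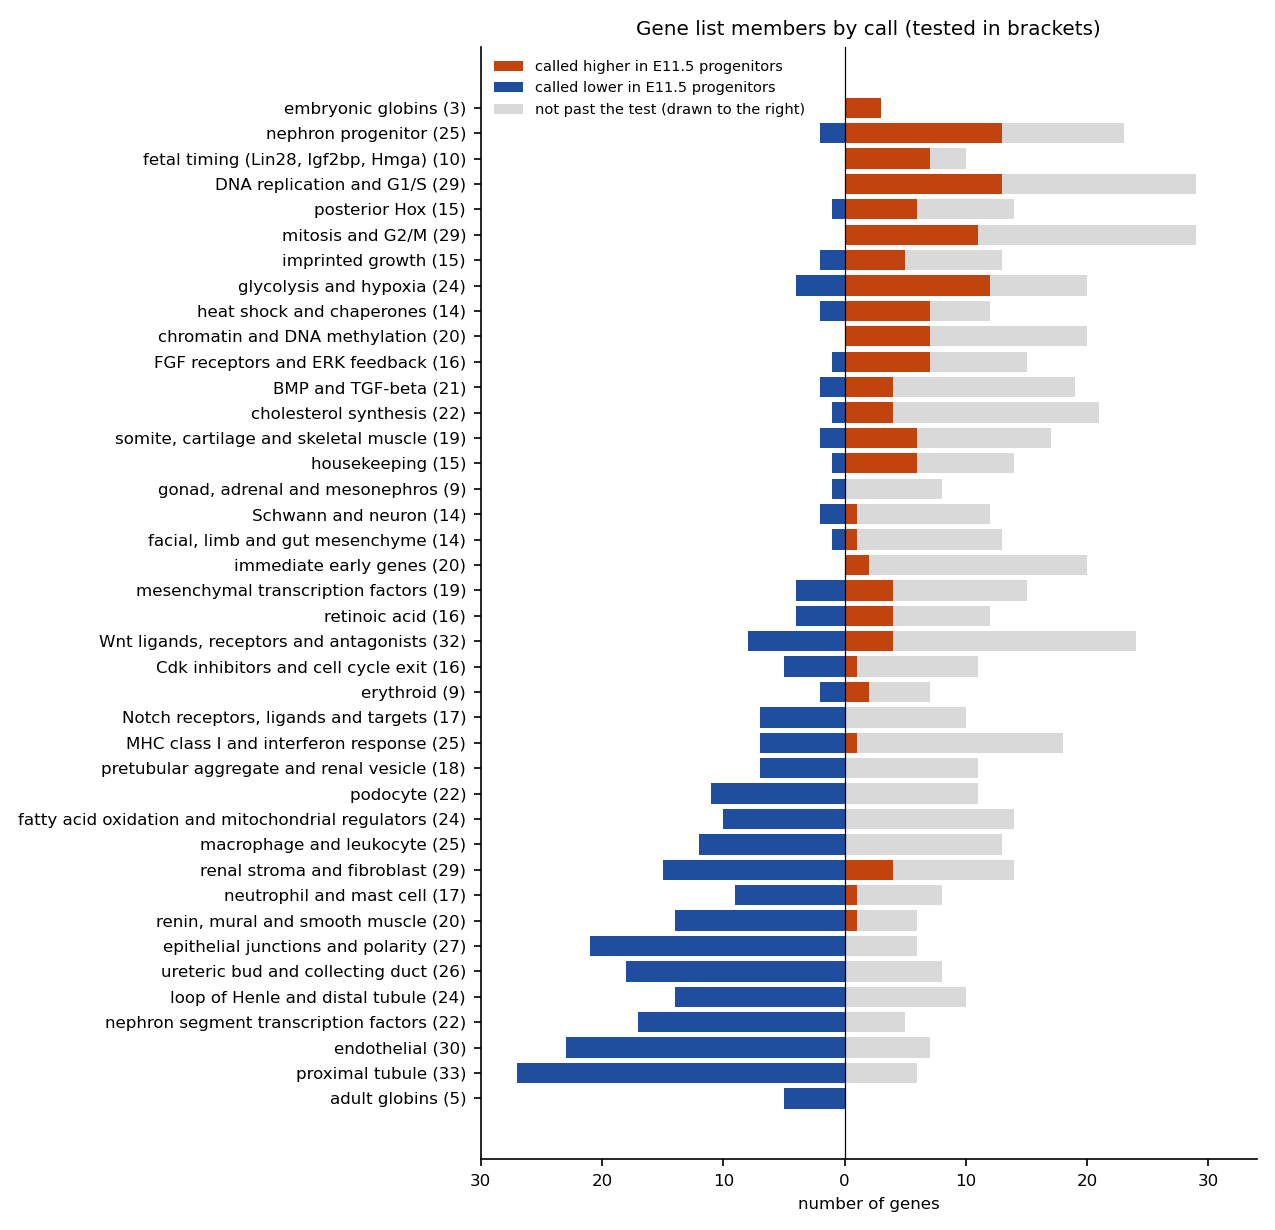
Members of each gene list called higher (orange, to the right), called lower (blue, to the left) or not past the test (grey, drawn to the right of the higher calls), with the number tested in brackets and lists ordered by median change. The proximal tubule list has 27 lower calls of 33 and the nephron progenitor list 13 higher calls of 25.

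Stromal and mural genes were mostly lower, with a few exceptions. Of 29 stroma and fibroblast genes 15 were lower and 4 higher (median -2.42, with bounds -1.91). Col1a2, a chain of type I collagen, read -0.94 and -0.27 against 5.81 and 5.94 (-6.48 ± 0.5, adjusted p = 0.00036), and Col3a1, a defining marker, read -1.1 and -0.76 against 4.61 and 4.96 (-5.71 ± 0.33, adjusted p = 0.000146). Pdgfra was at least 51.3-fold lower, Dcn at least 75.6-fold and Col6a3 at least 28.4-fold. The opioid precursor Penk read 5.64 and 5.5 in the newborn cells and -3.71 and -5.34 at E11.5, where 1 array was above background (-10.09 ± 0.89). The proteoglycan Vcan (5.98 and 5.69 against 3.39 and 3.18, 2.55 ± 0.31, adjusted p = 0.00178), the homeobox gene Meis2 (1.96 ± 0.3, adjusted p = 0.00498), Dlk1 and Aldh1a2 were the 4 that rose. The P0 progenitors read 6.41 and 6.42 for Vcan and 5.14 and 5.12 for Aldh1a2. Foxd1, the defining gene of the renal stroma, read 3.83 and 3.2 against 1.2 and 1.55 and did not pass (2.14 ± 1.25, adjusted p = 0.286). Dcn (adjusted p up to 0.0629) passed without E11.5 replicate 2 but in none of the other 3 fits that leave out an array.

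Renin, mural and smooth muscle genes gave 14 lower and 1 higher of 20 (median -3.26). Their summed level, which bright genes dominate, differed little, at 567 and 531 on the E11.5 arrays against 560 and 612. The renin gene Ren1 read -3.25 and -3.61 against 4.68 and 4.18 (-7.86 ± 0.57, adjusted p = 0.000299), and smooth muscle actin Acta2 read -2.74 and -3.0 against 5.2 and 4.74 (-7.84 ± 0.64, adjusted p = 0.000432). Ren2, a near-identical copy whose signal may not be separable from that of Ren1, was at least 212-fold lower. Desmin, Des, rose (1.86 and 2.41 against -0.51 and -1.24, 3.01 ± 0.48, adjusted p = 0.00538). The other 5 genes did not pass, among them the defining marker Pdgfrb, Cspg4 and Mcam. The lower calls fell to 9 without E11.5 replicate 1 or P0 non-progenitor replicate 2, and to 7 without P0 non-progenitor replicate 1. Mesenchymal transcription factors were divided, with 4 higher and 4 lower of 19 (median 0.04). Sox11 read 5.15 and 5.62 against 2.74 and 2.49 (2.77 ± 0.26, adjusted p = 0.000712) and Foxc1, an early factor of the kidney mesenchyme, changed by 1.97 ± 0.27, adjusted p = 0.00315. Snai1, a repressor of epithelial genes, was at least 6.89-fold higher. The T-box genes Tbx3 and Tbx2 were at least 89.6-fold and 19.7-fold lower, and Zeb2 read 0.64 and 0.42 against 2.52 and 2.82 (-2.14 ± 0.57, adjusted p = 0.0389). The list had 2 lower calls without P0 non-progenitor replicate 1 and 2 without P0 non-progenitor replicate 2, and its median turned to -0.10 with centring. Zeb2 (adjusted p up to 0.159) passed in none of the 4 fits that leave out an array. Snai1 (adjusted p up to 0.16) passed without E11.5 replicate 1 but in none of the other 3 fits that leave out an array.

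Endothelial genes were mostly lower, with 23 lower and none higher of 30 (median -5.52, with bounds -5.16). Their summed level was 14.6 and 9.42 on the E11.5 arrays against 192 and 168. Cdh5, the endothelial cadherin, was at least 192-fold lower, the receptor kinase Tie1 at least 67.0-fold and the lectin Cd93 at least 610-fold. Pecam1, a defining marker, read -3.53 and -3.3 against 1.83 and 1.47 (-5.06 ± 0.38, adjusted p = 0.000324), and Cldn5 read -3.62 and -3.43 against 3.39 and 3.38 (-6.91 ± 0.35, adjusted p = 8.31e-05). Kdr, the VEGF receptor, changed by -0.5 ± 0.23 (adjusted p = 0.178) with the brightest probe and by -7.07 with its other probe. Without E11.5 replicate 2 the list had 1 higher call. In bulk samples, fewer cells of a type and less RNA per cell cannot be told apart, here and in every list of another cell type.

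The macrophage and leukocyte list gave 12 lower and none higher of 25 (median -2.41). The list nevertheless had a higher summed level at E11.5, 386 and 360 against 320 and 346. It had 5 lower calls without P0 non-progenitor replicate 1 and 5 without P0 non-progenitor replicate 2. The protease Ctss was at least 84.9-fold lower, the chemokine Pf4 at least 43.5-fold and the chemokine receptor Cx3cr1 read -2.42 and -6.13 against 0.58 and 1.68 (-5.41 ± 1.3, 1 E11.5 array above background). Aif1 read -3.68 and -4.13 against 0.6 and 0.85 (-4.63 ± 0.87, adjusted p = 0.0107). The defining marker Ptprc read -1.44 and -1.54 against -1.62 and -1.57 (adjusted p = 0.831) and Csf1r 4.07 and 4.04 against 3.78 and 3.87 (adjusted p = 0.267), and neither passed. The 3 Csf1r probes gave changes from -2.46 to 0.23. Neutrophil and mast cell genes gave 9 lower and 1 higher of 17, with S100a9 at least 246-fold and S100a8 at least 27.4-fold lower. The higher one was Csf3r (8.05 and 7.99 against 7.31 and 7.44, 0.65 ± 0.1, adjusted p = 0.00446), a bright probe with a small difference. The summed level of the neutrophil and mast cell list was also higher at E11.5, at 268 and 256 against 182 and 196. Such sums give most weight to bright probes. Cx3cr1 (adjusted p up to 0.134) passed without E11.5 replicate 1 but in none of the other 3 fits that leave out an array. Aif1 (adjusted p up to 0.0636) did not pass without P0 non-progenitor replicate 1 or without P0 non-progenitor replicate 2.

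**Figure D5:**
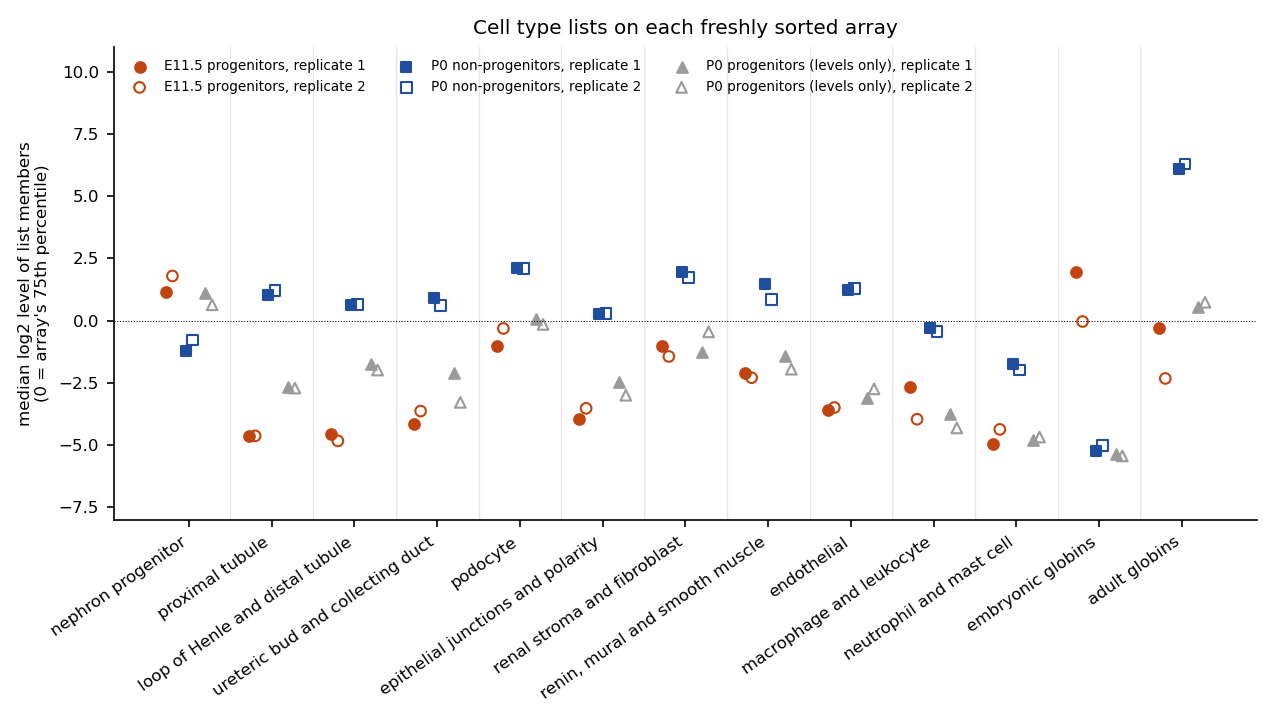
Median log2 level of the members of 13 cell type lists on each freshly sorted array (filled, replicate 1; open, replicate 2), P0 progenitors as levels only. Tubule, endothelial and adult globin medians are lower on both E11.5 arrays than on both P0 non-progenitor arrays, and the nephron progenitor and embryonic globin medians are higher.

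Globins separated the groups by type. All 3 embryonic globins were higher in the E11.5 cells and all 5 adult globins tested were lower. Hbb-y, the embryonic beta-like chain (probe at chr7:111000448-111000507, mm9), read 5.51 and 3.87 against -4.99 and -3.74, with 1 P0 non-progenitor array above background (9.06 ± 0.79, adjusted p = 0.000533). Hba-x was at least 78.2-fold and Hbb-bh1 at least 28.7-fold higher. Adult Hba-a1 read 3.73 and 2.46 against 9.27 and 9.0 (-6.04 ± 0.7, adjusted p = 0.00154), and Hbb-b2 read -3.24 and -2.32 against 5.29 and 5.48 (-8.17 ± 0.5, adjusted p = 0.000169). Hba-a1 and Hba-a2 are near-identical copies, as are the adult beta genes, so their probes may share signal. The summed level of the embryonic globins was 52.3 and 15.9 on the E11.5 arrays against 0.0691 and 0.115, and that of the adult globins 19.4 and 7.36 against 969 and 798. Other erythroid genes did not share one direction: Alas2, the heme enzyme, was lower (-4.59 and -2.79 against 3.51 and 3.23, -7.06 ± 0.87, 1 E11.5 array above background), the carbonic anhydrase Car2 at least 77.4-fold lower, and the transferrin receptor Tfrc higher (1.59 ± 0.28, adjusted p = 0.0086). The list's 2 higher calls became 1 when any of the 4 arrays was left out. Hbb-bh1 (adjusted p up to 0.0779) did not pass without P0 non-progenitor replicate 1 or without P0 non-progenitor replicate 2.

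The promoters of 3 globins (RefSeq, GRCm38.p6) are shown because CCAAT stands before the start of each, the embryonic one included. Capitals mark, on either strand of the 120 bases before the start, CCAAT and 2 further patterns. These are the TATA box TATAAA, which 14.3% of all promoters hold in 250 bases, and CCNCACCC of the CACCC box, which 16.6% hold. Of the 3 windows shown, that of Hbb-bt holds all 3 patterns.
Hbb-y (chr7:103853208-103853327, minus strand): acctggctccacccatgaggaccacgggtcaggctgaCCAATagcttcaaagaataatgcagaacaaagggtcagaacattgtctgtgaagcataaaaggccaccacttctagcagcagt
Hbb-bt (chr7:103813924-103814043, minus strand): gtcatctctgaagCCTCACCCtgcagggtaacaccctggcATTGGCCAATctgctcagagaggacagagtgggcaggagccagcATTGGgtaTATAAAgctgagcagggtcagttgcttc
Hba-a1 (chr11:32283552-32283671, plus strand): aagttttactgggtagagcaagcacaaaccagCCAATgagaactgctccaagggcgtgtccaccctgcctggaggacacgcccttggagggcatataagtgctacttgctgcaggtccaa
Hbb-bt, an adult beta chain, read -0.3 and -5.74 against 6.1 and 4.5 (-8.32 ± 1.6, 1 E11.5 array above background). Globin and macrophage genes differed between the E11.5 replicates. All 3 embryonic globins and 4 of the 5 adult globins were more than 1 log2 unit higher on replicate 1. The same held for 8 of 25 macrophage genes, with 3 lower, and for 4 of 30 endothelial genes, with 5 lower. Over all genes 25.0% differed by more than 1 log2 unit between these replicates, in either direction, and the endothelial counts are near that share. Proximal tubule genes (5 higher and 1 lower of 33) and renin and mural genes (4 higher and 1 lower of 20) also leaned to replicate 1, with counts near or below that share. Ureteric bud and collecting duct genes (2 higher and 7 lower of 26), segment transcription factors (1 higher and 6 lower of 22) and junction genes (4 higher and 6 lower of 27) leaned the other way. Rgs5 of pericytes read 1.96 and -2.23 and Tyrobp of macrophages 0.55 and -1.16, both chosen after their values were seen. Without E11.5 replicate 1, 22 endothelial, 9 macrophage and all 5 adult globin genes were lower and all 3 embryonic globins higher. The part of such other cells in the remaining results was not tested. Rgs5 (adjusted p up to 0.101) and Tyrobp (adjusted p up to 0.0668) did not pass without P0 non-progenitor replicate 1 or without P0 non-progenitor replicate 2. Hbb-bt (adjusted p = 0.076) did not pass without P0 non-progenitor replicate 1.

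Stress, immune and reference genes are given for reference. Of 14 heat shock genes 7 were higher and 2 lower (median 0.66). Hsph1 read 5.19 and 5.65 against 2.65 and 2.57 (2.81 ± 0.31, adjusted p = 0.00135), Hsp90aa1 changed by 1.69 ± 0.12, adjusted p = 0.000315 with a second probe at 0.19, and the mitochondrial chaperones Hspd1 (1.26 ± 0.14, adjusted p = 0.00146) and Hspe1 (1.01 ± 0.12, adjusted p = 0.0018) rose. The small heat shock genes Hspb1 (-2.52 and -2.17 against 2.07 and 1.81, -4.29 ± 0.58, adjusted p = 0.00283) and Cryab (-2.64 ± 0.28, adjusted p = 0.00103) were lower. Antigen presentation and interferon genes gave 7 lower and 1 higher of 25 (median -1.40), with B2m, the light chain of MHC class I, at -0.39 and -1.02 against 3.43 and 3.46 (-4.15 ± 0.54, adjusted p = 0.00255) and Ifitm3 at 0.87 and 0.5 against 5.24 and 5.54 (-4.71 ± 0.66, adjusted p = 0.00317). H2-Q4 was the exception (0.42 ± 0.12, adjusted p = 0.0463), and it changed sign under quantile normalization. The lower calls fell to 3 without E11.5 replicate 1 or P0 non-progenitor replicate 2 and to 4 without P0 non-progenitor replicate 1, and H2-Q4 passed in none of the 4 fits that leave out an array.

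Immediate early genes, induced within minutes by stimuli such as tissue handling, gave 2 higher calls of 20, Myc (2.23 and 2.7 against -0.08 and 0.72, 2.15 ± 0.35, adjusted p = 0.00612) and Egr3 (2.68 ± 0.72, adjusted p = 0.0402). That count is near the 9.78% of all genes called higher. The median of these 20 genes, 0.24 beside 0.25 for all genes, became -0.02 after quantile normalization. The list had 1 higher call when any of the 4 arrays was left out, and 1 lower call without E11.5 replicate 1. Among 15 reference genes 6 were higher and 1 lower, B2m above. Ppia (0.77 ± 0.09, adjusted p = 0.00188) and Rplp0 (0.69 ± 0.08, adjusted p = 0.00173) rose by less than 1 unit and Actb did not pass (0.38 ± 0.16, adjusted p = 0.141), and the list's median of 0.42 became -0.05 after quantile normalization. Egr3 (adjusted p up to 0.164) passed in none of the 4 fits that leave out an array.

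Markers of other embryonic tissues that a Six2 reporter could catch at E11.5 are given list by list. In the facial, limb and gut mesenchyme list 1 of 14 was called higher, Tbx5, which was below background in both groups and has no fold, and 1 lower, Alx1 (at least 37.8-fold). Tbx5 passed in none of the 4 fits that leave out an array, and the list had no higher call in 3 of them, the exception being without E11.5 replicate 1. Of 19 somite, cartilage and muscle genes 6 were higher and 2 lower, a larger share higher than the 9.78% of all genes. Of the higher ones, Meox1 and Uncx are also in the nephron progenitor list and Des in the mural list. The muscle and somite factors Myf5, Myf6, Pax1, Pax3 and Pax7 were below background in all groups and were not tested. The cartilage collagen Col2a1 read 2.42 and 2.71 against -1.83 and -1.75 (4.35 ± 0.39, adjusted p = 0.00059), and the P0 progenitors read 3.33 and 3.22. Col9a1 read 1.5 and 1.69 against -3.64 and -6.83, with 1 P0 non-progenitor array above background (6.83 ± 0.98), and its 2 probes gave 0.47 and 6.83. The muscle regulators Myod1 (1.88 and 1.75 against 1.47 and 1.47) and Myog (-2.47 and -2.01 against -2.35 and -1.56) did not pass, at adjusted p-values of 0.271 and 0.801. Among 14 Schwann cell and neuron genes Dcx was higher (3.77 and 1.65 against -0.37 and -0.91, 3.35 ± 0.88, adjusted p = 0.0382) and Erbb3 at least 17.4-fold lower, and the glial factor Sox10 did not pass (adjusted p = 0.528). Dcx passed without E11.5 replicate 2 and in none of the other 3 fits that leave out an array, and the 2 lower calls of the list became 1 in all 4. Of 9 gonad, adrenal and mesonephros genes 1 was called, Emx2, at least 29.1-fold lower, and 2 were without E11.5 replicate 1.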

How the data were processed

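RNA of sorted cells, amplified with Ovation Pico WTA V2 and labelled with Cy3, was hybridised to one-colour Agilent arrays, per the labels' protocols. The deposited intensity of each spot is the processed signal of Agilent Feature Extraction 11.5.1.1, per the submitters' processing notes and the file headers, which record spatial and multiplicative detrending and no normalization between arrays. Such detrending and the amplification can both distort dim spots.

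From there, control spots and outlier-flagged spots were left out, signals were put on a log2 scale and each array's 75th percentile was subtracted. Spots of a probe were averaged, and of several probes the one brightest on average over the 10 arrays stood for the gene. A gene entered the test if at least 1 of the 5 groups had it well above background on both of its arrays. Group means were fitted over all 10 arrays with limma 3.58.1 in R 4.3.3 (eBayes with an intensity trend, Benjamini-Hochberg threshold 0.05). A bound compares the bright group's mean with, per array of the dim group, the higher of the probe's own signal and the lowest signal well above background. Gene names came from RefSeq accessions for 28348 probes, current symbols for 3195, synonyms for 271 and the files for 23867. The files give probe positions on mm9, and no annotation of that build was used here.

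The members and the gene lists were chosen with earlier results of these data known. Genes named were the 20 largest changes each way, the 10 highest bounds each way, up to 6 called and 3 uncalled genes per list with members against the trend, and 9 kidney regulators. The text names a selection of them, and others are marked as defining markers or as chosen after their values were seen. A few items are not reported here. Results were recomputed under 19 other settings, 1 of them chosen after seeing the data, covering background, scaling, filters, probe choice, moderation, blocks, samples in the fit and leaving out arrays. The procedure was tested on simulated data of the 26210 genes, where it called 4 of 67 shifts of 1 log2 unit, 18 of 67 shifts of 2 and 46 of 66 shifts of 4. Of its 72 calls 4 were false. Far fewer genes were shifted there than were called in the data (17.8%), which makes the adjusted threshold stricter. These recovery shares therefore do not carry over to the real comparison.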

Additional observations from a re-analysis of the deposited data

How the results depend on the processing

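The count of 4659 calls stayed within 1.5 times under 15 of the 19 alternatives. It was 2967 in a fit of the 4 compared arrays, 1054 (181 higher, 873 lower) when a change of at least 1 log2 unit was required, and 2308 to 3652 when 1 of the 4 arrays was left out, with 2538 without P0 non-progenitor replicate 1 and 2308 without P0 non-progenitor replicate 2. Of the calls 55.0% were higher; this was 37.6% after quantile normalization, where 190 calls changed sign, 44.7% with centring (chosen after seeing the data), 70.9% when genes had to be above background on all 10 arrays, and 46.1% without the intensity trend. Among the named genes, H2-Q4 reversed under quantile normalization, to -0.13. The replicate numbers of the 2 groups did not pair the samples (correlation of deviations -0.0049), and a replicate block gave 4373 calls. The cause of these shifts was not tested. Signal near background limits the genes dim at E11.5, for which only bounds are given.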

Other observations

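Several of the largest differences lay in genes outside the lists. Among those higher in the E11.5 progenitors, Cxxc4, an inhibitor of Wnt signalling, read 2.39 and 1.53 against -2.98 and -3.33 (5.11 ± 0.43, adjusted p = 0.000468). The protocadherin gene Pcdh8 read 2.48 and 1.94 against -3.06 and -2.62 (5.05 ± 0.87, adjusted p = 0.00785) and the neurotrophin receptor gene Ngfr read 5.56 and 5.31 against 0.38 and 0.46 (5.01 ± 0.53, adjusted p = 0.00106). Their P0 progenitor levels were 1.96 and 1.88 for Cxxc4, -0.56 and -0.61 for Pcdh8 and 3.25 and 3.42 for Ngfr. Eno3, the muscle-type enolase, changed by 4.65 ± 0.6, adjusted p = 0.0023, and Moxd1 by 4.77 ± 0.84, adjusted p = 0.00829. Of genes below background in the newborn negative cells, Nell1 was at least 131-fold higher and the muscle actinin gene Actn3 at least 80.7-fold higher. Pcdh8 (adjusted p = 0.0503) and Moxd1 (adjusted p = 0.0523) did not pass without P0 non-progenitor replicate 1.

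Among genes lower in the E11.5 progenitors, S100a6, a calcium-binding protein, read -2.42 and -3.27 against 5.51 and 4.95 (-8.08 ± 0.64, adjusted p = 0.000386). The metallothionein gene Mt1 read -3.14 and -2.41 against 4.39 and 4.84 (-7.39 ± 0.37, adjusted p = 8.31e-05), and the BMP and Wnt antagonist gene Sostdc1 read -4.0 and -3.85 against 3.39 and 3.11 (-7.18 ± 0.64, adjusted p = 0.000569). The P0 progenitors read 1.22 and -0.87 for S100a6 and 1.58 and 1.69 for Mt1. Of genes below background at E11.5, the urokinase gene Plau was at least 945-fold lower, the amino acid transport helper Cltrn at least 815-fold and Sparcl1 at least 571-fold.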
